A study of Homo sapiens with 18 samples.

Results

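The genes described here are 10 immediate early genes: the zinc finger factors EGR1, EGR2 and EGR3, the orphan nuclear receptors NR4A1, NR4A2 and NR4A3, the response genes IER2, IER3 and IER5, and SRF, the serum response factor. They were taken by symbol from the 43735 genes in the count table, and the set was chosen with earlier results of these data known. Of the 10 genes, 9 had enough counts to be tested beside 14281 genes in all, and IER3 did not. RNA sequencing was available for 18 libraries of 2 human multiple myeloma lines with a common origin. MM1S cells are sensitive to glucocorticoids, whereas MM1R cells are resistant and are known for their loss of the glucocorticoid receptor. Each line had 3 untreated libraries, 3 libraries of RSL3 treatment (5 µM, 3 h), and 3 in which a pretreatment with Fer-1 (2 µM, 2 h) preceded the same dose of RSL3. RSL3 inhibits GPX4, the peroxidase that removes lipid peroxides, and thereby induces ferroptosis, while Fer-1 (ferrostatin-1) traps lipid radicals and prevents this form of cell death. The 3 libraries of a group came from cell passages 4, 6 and 7 in MM1R cells and passages 16, 22 and 23 in MM1S cells, so that each passage gave 1 library of every treatment. No library of Fer-1 alone was analysed here. In such bulk samples, fewer cells of a kind and less RNA per cell cannot be told apart.

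Immediate early genes are transcribed within minutes of a stimulus, without the need for new protein synthesis. SRF sits on CArG boxes of many of their promoters and recruits the ELK factors once they are phosphorylated by ERK, whereas CREB and its relatives act through cAMP response elements. The EGR proteins and the NR4A receptors are themselves transcription factors, and the NR4A receptors are thought to act mainly through their abundance, without a classical ligand. NR4A1 and NR4A3 are known as tumour suppressors in blood cells, and NR4A1 as a mediator of lymphocyte death.

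Total counts per library were about 17635400 to 19368300 (median 18564700). All 8 plasma cell markers were expressed, with summed levels of 4382 to 6243 CPM (counts per 1000000 counts of the library, scaled by TMM), and the 4 B cell markers and 4 monocyte markers each summed to less than 1 CPM in every library. The T cell markers summed to 3.52 to 11.8 CPM, with CD3E alone over 1 CPM. The fibroblast and epithelial markers summed to at most 5.58 CPM, except for 21.5 CPM in the highest RSL3 library of MM1S cells, where COL1A1 reached 19.5 CPM, and their part in the results was not tested. The MM1R library of passage 6 with Fer-1 and RSL3 went against its label in part. It held 50.2 CPM of NR3C1, the glucocorticoid receptor gene, beside 13.8 to 22.3 CPM in the other MM1R libraries, and the median of 7 genes that mark MM1S cells lay at 47.6% of its MM1S level. Values without this library are given for the main results it enters. On the median of the 7 genes, passage 16 was lowest among the MM1S libraries. It lay at 89.4% untreated, 65.3% with RSL3 and 72.4% with Fer-1 and RSL3, beside 99.1% to 113.9% at passages 22 and 23. NR3C1 was higher at passage 16, at 151.6 to 391.5 CPM, beside 89.8 to 102.3 CPM at passages 22 and 23. The cause was not tested.

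The promoters of the members differ in the elements that the 2 activator families use. Of the 10 members, 7 had an entry in the RefSeq promoter table (GRCh38.p14), from which the 250 bases before the start were read on both strands. CArG boxes, found in 1.16% of 35116 windows, were present in EGR1, 1 of 2 starts of SRF and 1 of 3 starts of EGR2, and in none of the windows of NR4A1, NR4A3, IER2 or IER5. TGACG, the core of a cAMP response element, was found in 21.2% of all windows. It occurred 4 times in the NR4A3 window, 2 times each in EGR1 and in the EGR2 window with the CArG box, 1 time each in IER2 and in the SRF window with the CArG boxes, and in neither of the 2 NR4A1 windows. The full element TGACGTCA, found in 1.65% of all windows, was present in none of the windows of the members. GAANNTTC, a pair of inverted heat shock units, was present in 5.78% of windows and, among the members, in IER5. The sequences of EGR1, SRF, NR4A3 and IER5 are shown because they differ in CArG boxes, TGACG and GAANNTTC, and a link between element and response was not tested. Capitals mark the CArG boxes and TGACG, or its reverse complement, in EGR1, SRF and NR4A3, and GAANNTTC in IER5. All 4 are on the plus strand of GRCh38.p14, at chr5:138465229-138465478, chr6:43171019-43171268, chr9:99821635-99821884 and chr1:181088450-181088699.
EGR1: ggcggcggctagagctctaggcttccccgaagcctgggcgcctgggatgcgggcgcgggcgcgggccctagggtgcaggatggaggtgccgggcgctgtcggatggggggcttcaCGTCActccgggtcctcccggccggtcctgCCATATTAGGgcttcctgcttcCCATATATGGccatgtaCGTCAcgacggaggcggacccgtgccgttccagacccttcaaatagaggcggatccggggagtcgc
SRF: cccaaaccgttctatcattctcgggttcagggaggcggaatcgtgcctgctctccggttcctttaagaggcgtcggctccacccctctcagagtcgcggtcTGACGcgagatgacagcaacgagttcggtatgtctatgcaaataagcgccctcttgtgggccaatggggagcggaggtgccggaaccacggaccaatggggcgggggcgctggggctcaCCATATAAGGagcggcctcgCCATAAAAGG
NR4A3: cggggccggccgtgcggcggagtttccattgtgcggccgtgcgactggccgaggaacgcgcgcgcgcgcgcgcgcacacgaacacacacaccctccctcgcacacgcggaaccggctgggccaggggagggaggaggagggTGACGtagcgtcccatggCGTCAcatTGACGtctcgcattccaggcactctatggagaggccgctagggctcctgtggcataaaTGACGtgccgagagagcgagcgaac
IER5: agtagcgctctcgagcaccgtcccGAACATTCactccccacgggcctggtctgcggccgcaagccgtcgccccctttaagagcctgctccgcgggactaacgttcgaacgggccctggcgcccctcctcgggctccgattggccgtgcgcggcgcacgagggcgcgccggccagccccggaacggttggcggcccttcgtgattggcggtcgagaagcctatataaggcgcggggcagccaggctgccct
In EGR1 the CArG boxes CCATATTAGG and CCATATATGG begin 105 and 83 bases before the start, and in SRF the boxes CCATATAAGG and CCATAAAAGG begin 30 and 10 bases before it. In NR4A3 the 4 matches begin 109, 91, 83 and 25 bases before the start. These matches are letters in a window and not measured binding sites.

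NR4A1 rose with RSL3 in both lines and had the highest mean level per length of all members in both RSL3 groups, though not the highest level in every library. The gene lies on chromosome 12, from 52416616 to 52453291 on the plus strand of hg19, and its canonical transcript has 7 exons. In untreated MM1R cells it had 134, 112 and 53 counts at passages 4, 6 and 7, which became 5868, 592 and 24419 counts with RSL3 and 542, 198 and 78 counts with Fer-1 before RSL3. In MM1S cells the untreated libraries of passages 16, 22 and 23 had 20, 53 and 34 counts, the RSL3 libraries 31543, 294 and 214, and the Fer-1 libraries 466, 450 and 92. Every RSL3 library was above every untreated library of its line, but 1 library, that of MM1S passage 16 at 2072 CPM, held most of the NR4A1 signal of its group. The next highest was that of MM1R passage 7 at 1389.8 CPM, whereas the other 4 RSL3 libraries had 11.4 to 315 CPM. Within a passage, RSL3 raised NR4A1 by 45.3, 5.26 and 453 times in MM1R cells, and by 2001, 5.66 and 6.69 times in MM1S cells. The size of the rise thus differed widely between passages, while its direction was the same in all 6.

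**Figure D1:**
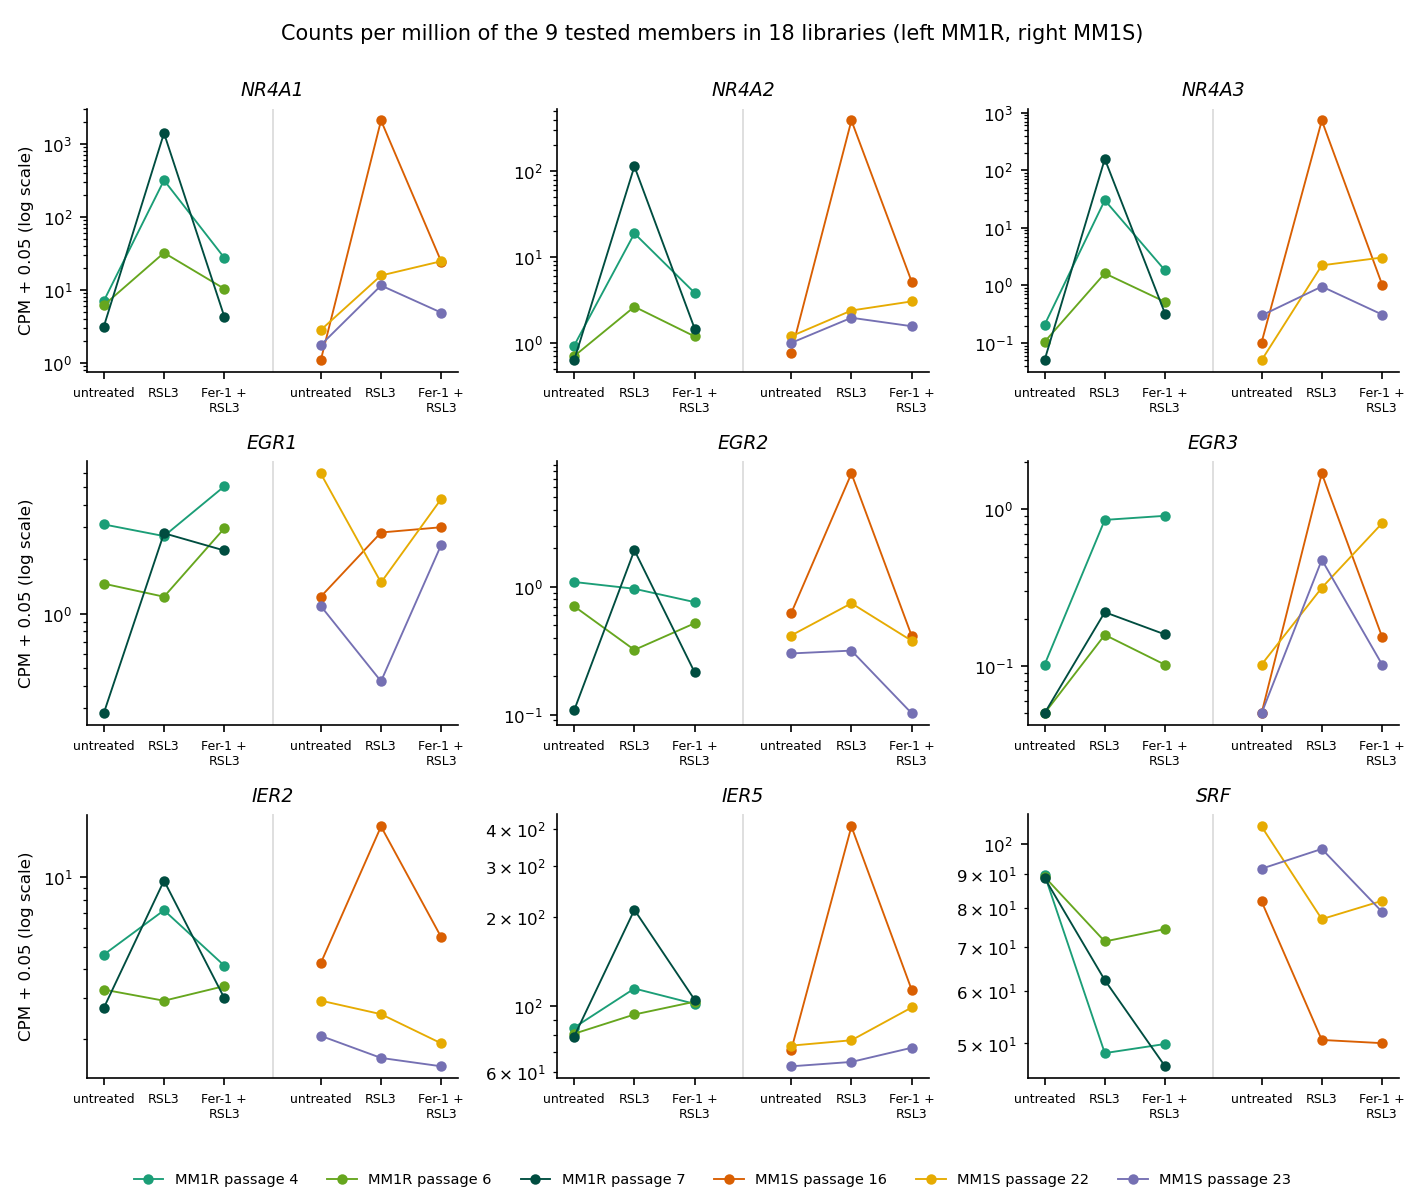
Level of each of the 9 tested members as CPM + 0.05 on a log scale, with MM1R libraries on the left and MM1S libraries on the right of each panel. Points are single libraries and lines join the 3 treatments of a passage. The NR4A genes peak with RSL3 in all passages but 22, where the Fer-1 library is higher, and SRF lies lower after RSL3 in 5 of 6 passages.

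The fit put the NR4A1 rise at 6.74 on the log2 scale in the MM1R line (SE 1.77, FDR 0.0458) and at 8.57 in the MM1S line (SE 1.96, FDR 0.0236), with edgeR's quasi-likelihood test. A gene was called when its FDR, adjusted over all genes tested, was under 0.05 and its log2 fold change over 1 in size. NR4A1 was the 1 member called in MM1R cells, where 1.2% of all genes were called (1.06% higher), and 1 of 3 members called in MM1S cells, where 1.61% were (1.35% higher). The untreated and RSL3 groups did not overlap for 5 members that were higher in MM1R cells (13.5% of all genes), for 1 that was lower (12.3%) and for 4 that were higher in MM1S cells (12.6%). The MM1R call was lost without the passage 6 library with Fer-1 and RSL3 (6.74, FDR 0.0584). With the passage as a block, NR4A1 had an FDR of 0.0318 in the MM1R line and of 0.0520 in the MM1S line. Without the RSL3 library of MM1S passage 16, the MM1S rise was 2.88 (FDR 0.314), and without that of MM1R passage 7 the MM1R rise was 5.01 (FDR 0.140).

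NR4A2 had the same order of RSL3 libraries at a lower level. The gene lies on chromosome 2, from 157180949 to 157198860 on the minus strand of hg19. Its counts in MM1R cells were 17, 12 and 10 in untreated libraries, 351, 48 and 2006 with RSL3, and 75, 22 and 26 with Fer-1 and RSL3. For MM1S cells they were 14, 22 and 19, then 5952, 44 and 36, and then 99, 55 and 29. The groups did not overlap between untreated and RSL3 libraries in either line. NR4A2 had a log2 fold change of 5.98 in the MM1R line (FDR 0.0807, edgeR) and of 7.11 in the MM1S line (FDR 0.0392). With the passage as a block NR4A2 was called in MM1R cells (5.40, FDR 0.0351) and no longer in MM1S cells (5.44, FDR 0.0507). Without the RSL3 library of passage 16, the MM1S value was 1.18 (FDR 0.763), and without that of passage 7 the MM1R value was 3.91 (FDR 0.279).

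NR4A3, at chromosome 9, 102584137 to 102629173 on the plus strand, was nearly silent before treatment. The untreated libraries held 3, 1 and 0 counts in MM1R cells and 1, 0 and 5 counts in MM1S cells. With RSL3 there were 561, 29 and 2759 counts in MM1R cells and 11155, 41 and 17 counts in MM1S cells. With Fer-1 before RSL3 there were 35, 9 and 5 counts in MM1R cells and 19, 55 and 5 in MM1S cells. Against a floor of 3 counts per library, the mean RSL3 level in MM1R cells was at least 383-fold higher. The fitted log2 fold change was 11.13 in MM1S cells (FDR 0.0287, edgeR) and 9.63 in MM1R cells (FDR 0.0664), and both values depend on the prior count. The block gave an FDR of 0.0142 in MM1R cells and 0.0157 in MM1S cells, so that NR4A3 was called in both lines. Without the RSL3 library of passage 16, the MM1S value was 3.83 (FDR 0.496), and without that of passage 7 the MM1R value was 7.65 (FDR 0.191) and the bound 96.5-fold. NR4A1 and NR4A3 each overlap an annotated antisense RNA that has no row of its own in the count table, and the use of strand in counting is not given in the sources used here. EGR3 and IER2 also overlap antisense RNAs without a row of their own, and EGR2 overlaps such an RNA on its own strand.

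Compared per kilobase of canonical transcript, NR4A1 made up most of the NR4A signal in all 18 libraries, from 65.7% to 92.6%. In untreated MM1S cells NR4A2 contributed 22.9% to 32.9% and NR4A3 at most 4.45%. The share of NR4A3 was highest, at 12.1%, in the RSL3 library of MM1S passage 16, which also held the highest summed NR4A level at 3195 CPM. In the RSL3 libraries of MM1R cells NR4A1 held 90.2% to 92.6%. Averaged over both lines, all 3 receptors were called higher with RSL3, at log2 fold changes of 7.66 for NR4A1 (FDR 0.00119), 6.55 for NR4A2 (FDR 0.00277) and 10.38 for NR4A3 (FDR 0.00189, edgeR). The NR4A3 value depends on the prior count. All 3 calls held in each of the 18 fits that leave out 1 library, with log2 fold changes no lower than 4.81, 3.58 and 6.73.

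**Figure D2:**
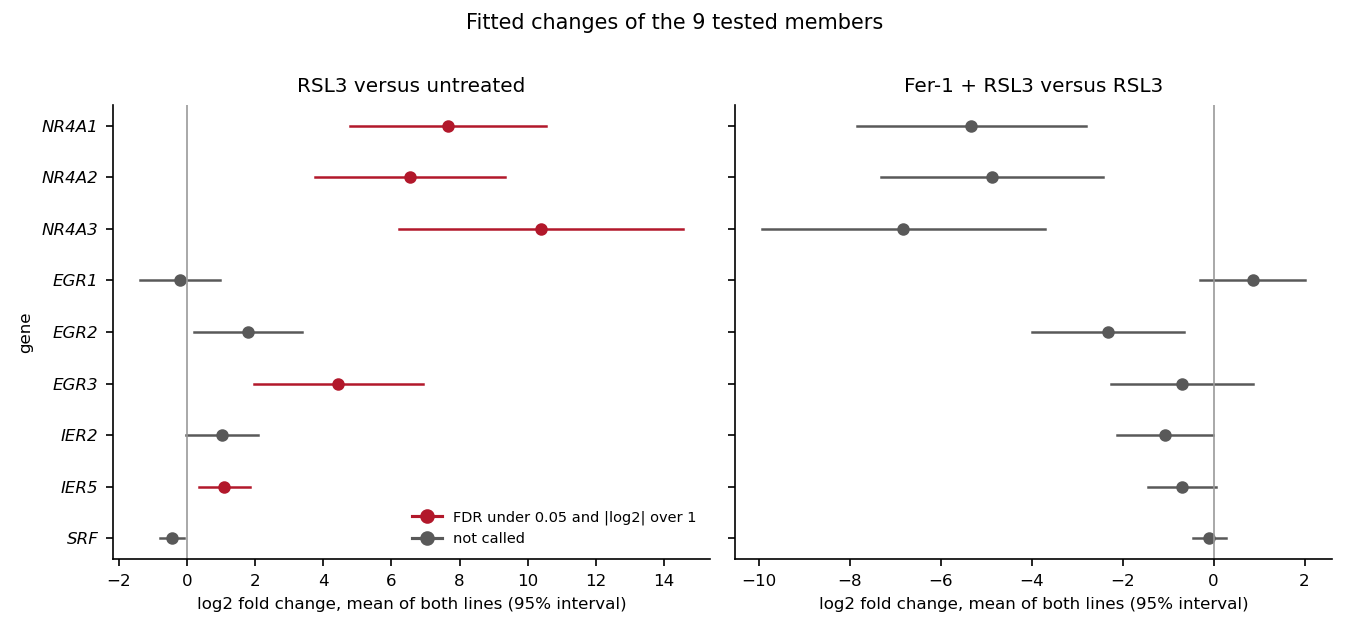
Fitted log2 fold change of each tested member, averaged over both lines, for RSL3 against untreated (left) and for Fer-1 and RSL3 against RSL3 (right); lines are 95% intervals and red marks a called change. The NR4A genes, EGR3 and IER5 are called higher with RSL3, and none of the 9 is called with Fer-1.

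Over the mean of both lines, 5 of the 9 tested members were called, all of them higher, beside 3.24% of all genes (2.79% higher). The 2 besides the NR4A genes were EGR3 and IER5. EGR3, a zinc finger factor induced by antigen receptor signals, rested on few reads. It had 1, 0 and 0 counts in untreated MM1R cells and 15, 2 and 3 with RSL3, and 0, 1 and 0 counts in untreated MM1S cells and 25, 5 and 8 with RSL3. Each RSL3 library was above the untreated libraries, and against the floor of 3 counts per library the mean was at least 2.20-fold higher in MM1R cells and at least 5.05-fold higher in MM1S cells. The first bound rested on passage 4, without which the mean of 2.5 counts lay under the floor, and the second was 2.25 without passage 16. The fitted mean log2 fold change of 4.45 (FDR 0.0147, edgeR) depends on the prior count. It was not called without the RSL3 library of MM1R passage 4 (FDR 0.0773), and in MM1S cells alone it was called with the passage as a block (4.98, FDR 0.0174) and not without it (FDR 0.0745). DESeq2 gave no adjusted p for EGR3 in either line. With Fer-1 and RSL3, EGR3 had 17, 1 and 2 counts in MM1R cells and 2, 14 and 1 in MM1S cells, so that passages 4 and 22 stayed at or above their RSL3 libraries.

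EGR1, the best known gene of the family, did not move in 1 direction. The gene is on chromosome 5, 137801168 to 137804992, and is a classical target of SRF and ELK. Its levels in MM1R cells were 3.06, 1.42 and 0.232 CPM untreated, 2.63, 1.19 and 2.73 CPM with RSL3, and 5.00, 2.91 and 2.18 CPM with Fer-1 and RSL3. The MM1S libraries had 1.19, 5.90 and 1.05 CPM, then 2.76, 1.44 and 0.373 CPM, and then 2.95, 4.26 and 2.36 CPM. The groups overlapped, RSL3 libraries were above their untreated library in 2 of 6 passages, and the log2 fold change averaged over both lines was -0.20 (95% interval -1.37 to 0.98, FDR 0.855, edgeR). A rise of more than 0.98 on this scale lies outside that interval. The Fer-1 and RSL3 libraries exceeded the RSL3 library in 5 of 6 passages and the untreated library in 5 of 6, although neither comparison passed the test.

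EGR2 had its highest level in a single library and also rose at MM1R passage 7, from very few counts. The RSL3 library of MM1S passage 16 had 116 counts, while the untreated MM1S libraries had 5 to 11 counts and the other MM1S RSL3 libraries had 13 and 5. In MM1R cells EGR2 had 20, 12 and 1 counts untreated and 17, 5 and 33 with RSL3. The log2 fold change in MM1S cells was 2.81 (FDR 0.143, edgeR), and the groups overlapped in both lines. With Fer-1 and RSL3, EGR2 had 14, 9 and 3 counts in MM1R cells and 7, 6 and 1 in MM1S cells. On the CPM scale it was below the RSL3 library in 5 of 6 passages. Against RSL3 alone the log2 fold change averaged over both lines was -2.32 (FDR 0.221, edgeR).

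IER5 was well expressed before treatment, second to SRF among the members. It is a single exon gene on chromosome 1, from 181057836 to 181062036 of hg19, whose protein binds HSF1 and the phosphatase PP2A. In MM1R cells it had 84.5, 80.6 and 78.8 CPM untreated, 115, 93.6 and 212 CPM with RSL3, and 102, 103 and 105 CPM with Fer-1 and RSL3. Both treated groups lay wholly above the untreated group. In MM1S cells the untreated libraries had 70.8, 73.4 and 62.4 CPM, the RSL3 libraries 407, 76.6 and 64.6 CPM, and the Fer-1 libraries 113, 98.9 and 72.2 CPM. IER5 was thus above the untreated library of its passage in 6 of 6 RSL3 and 6 of 6 Fer-1 libraries, but by only 1.03 to 1.36 times in 4 of the 6 passages with RSL3. It was called averaged over both lines (1.10, SE 0.34, FDR 0.0409, edgeR) and in neither line alone. With the block the mean was 0.85 (FDR 0.0393) and therefore below the fold limit. The call was lost in 12 of the 18 fits without 1 library, and the mean was 0.42 (FDR 0.11) without the RSL3 library of MM1S passage 16. Without the MM1R library of passage 6 with Fer-1 and RSL3 the FDR was 0.0512.

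IER2, which encodes a nuclear protein, was higher with RSL3 in the same 3 passages in which NR4A1 rose most. It had 4.57, 3.21 and 2.66 CPM in untreated MM1R cells and 7.15, 2.87 and 9.62 CPM with RSL3. In MM1S cells it had 4.19, 2.87 and 2.01 CPM untreated and 16.5, 2.50 and 1.60 CPM with RSL3. The groups overlapped, the log2 fold change averaged over both lines was 1.04 (95% interval -0.02 to 2.10, FDR 0.161, edgeR), and IER2 was lower with RSL3 at passages 6, 22 and 23.

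SRF was lower with RSL3 in 5 of 6 passages, but it was called in no comparison. It lies on chromosome 6, from 43139007 to 43149244 of hg19. In MM1R cells the untreated libraries were close together at 89.9, 89.2 and 88.9 CPM, and all RSL3 libraries were lower, at 48.3, 71.2 and 62.3 CPM. Fer-1 did not bring the level back, since the Fer-1 and RSL3 libraries had 49.9, 74.4 and 46.1 CPM. In MM1S cells SRF had 81.9, 106 and 91.7 CPM untreated, 50.6, 77.0 and 98.3 CPM with RSL3, and 50.0, 82.0 and 78.9 CPM with Fer-1 and RSL3. All 6 Fer-1 libraries were below the untreated library of their passage, and 5 of the 6 RSL3 libraries were. SRF had a log2 fold change of -0.56 in the MM1R line (FDR 0.211) and of -0.31 in the MM1S line (FDR 0.512), and -0.43 averaged over both lines (95% interval -0.80 to -0.07, FDR 0.0870, edgeR). With the passage as a block the mean was -0.47 (FDR 0.00627), which is smaller than the fold limit for a call. Between Fer-1 and RSL3 and RSL3 alone, SRF differed by -0.10 averaged over both lines (95% interval -0.46 to 0.27). Without the MM1R library of passage 6 with Fer-1 and RSL3 this difference was -0.22.

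IER3, an antiapoptotic response gene on chromosome 6, could not be read. It had 0 counts in 17 of 18 libraries and 1 count in the MM1R library of passage 7 with Fer-1 and RSL3. In a set of 10 neighbours in the same stretch of chromosome 6, chosen after these counts were seen, TUBB, PPP1R18, ATAT1, GNL1, ABCF1, CSNK2B, DDR1 and GTF2H4 had 0 counts in all 18 libraries, FLOT1 had 10 to 28 counts and DHX16 0 to 13. TUBB encodes a tubulin that dividing cells use in large amounts. The count of IER3 therefore says nothing of whether the gene was expressed, and the cause was not tested.

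Ranked per kilobase of transcript, SRF and IER5 were the members with the highest mean level in both untreated lines, at 21.1 and 19.3 CPM per kb in MM1R cells and 22.05 and 16.4 in MM1S cells. NR4A1 stood at 2.16 CPM per kb in untreated MM1R cells and 0.739 in untreated MM1S cells, NR4A2 at 0.203 and 0.271, and EGR3 at 0.00383 and 0.00385. With RSL3, NR4A1 had the highest mean in both lines, at 233 ± 288 (SD, n = 3) CPM per kb in MM1R cells and 282 ± 478 in MM1S cells, so that its SD exceeded its mean. IER5 followed in MM1R cells at 33.4 ± 15.0, and NR4A3 in MM1S cells at 43.8 ± 75.3, and the libraries of NR4A1 and IER5, and those of NR4A3 and IER5, overlapped in MM1R and MM1S cells, respectively. NR4A1 lay below both IER5 and SRF at MM1R passage 6 (12.9 against 22.3 and 16.8). The same held at MM1S passages 22 (6.30 against 18.2 and 18.2) and 23 (4.59 against 15.4 and 23.2). Its top rank in MM1S cells therefore came from passage 16 alone, at 834. In MM1R cells with RSL3, IER5 (22.3 to 50.5) lay wholly above SRF (11.4 to 16.8), and IER2 (1.36 to 4.56) above EGR1 (0.380 to 0.871). In MM1S cells with RSL3, all SRF libraries (11.95 to 23.2) were above those of IER2 (0.758 to 7.84). With Fer-1 and RSL3 the order of the first 3 was IER5, SRF and NR4A1 in both lines.

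With Fer-1 before RSL3 the NR4A genes were lower than with RSL3 alone in 5 of 6 passages, the exception being passage 22. The share of the rise in NR4A1 that was left with Fer-1 was 6.62%, 16.2% and 0.0859% at MM1R passages 4, 6 and 7, and 1.12% and 32.1% at MM1S passages 16 and 23. At MM1S passage 22 the Fer-1 library had 24.6 CPM against 15.7 CPM with RSL3 alone. NR4A2 was also higher there (3.00 against 2.34 CPM), as was NR4A3 (3.00 against 2.18 CPM). At MM1R passages 4, 6 and 7 the share left was 16.2%, 25.2% and 0.740% for NR4A2 and 5.38%, 27.3% and 0.174% for NR4A3. At MM1S passages 16 and 23 it was 1.13% and 58.6% for NR4A2 and 0.127% and 1.71% for NR4A3. The shares of passage 6 come from the library that went against its label in part. The log2 fold changes of Fer-1 and RSL3 against RSL3 were -5.37, -4.40 and -6.20 for NR4A1, NR4A2 and NR4A3 in MM1R cells and -5.29, -5.35 and -7.44 in MM1S cells. The groups did not overlap for NR4A1 in MM1R cells, which was lower (6.44% of all genes). No member was called in either line, and neither was any other gene (0% of all genes, edgeR), with 3 and 4 members at an unadjusted p under 0.05. DESeq2 called 1 member in MM1R cells, NR4A1 (FDR 0.0493), and 0 in MM1S cells, beside 17 and 5 of all genes.

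Averaged over both lines, NR4A1 differed by -5.33 (FDR 0.0663), NR4A2 by -4.87 (FDR 0.0832) and NR4A3 by -6.82 (FDR 0.0616, edgeR). None of the 9 members was called, beside 0.056% of all genes, and 5 had an unadjusted p under 0.05. DESeq2 called all 3 NR4A genes in this comparison, beside 61 of all genes. The fit with the passage as a block called NR4A3 (-5.44, FDR 0.0436), beside 53 of all genes. In the MM1S line these values rested on the RSL3 library of passage 16, without which they were 0.40 for NR4A1, 0.59 for NR4A2 and -0.14 for NR4A3. In MM1R cells they were -3.64, -2.34 and -4.22 without the RSL3 library of passage 7, and -5.19, -4.10 and -5.91 without the passage 6 library with Fer-1 and RSL3. The values averaged over both lines were -5.24, -4.72 and -6.67 without the passage 6 library (FDR 0.196, 0.209 and 0.177), and -2.49, -1.91 and -3.17 without the RSL3 library of passage 16. These comparisons share their RSL3 libraries with those against untreated cells, so that a high RSL3 library enters both with opposite signs.

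Compared with untreated cells, Fer-1 and RSL3 called no member in either line, beside 2.16% of all genes in MM1R cells and 1.37% in MM1S cells (edgeR), with 2 and 1 members at an unadjusted p under 0.05. DESeq2 called none either, although SRF in MM1R cells passed its FDR with a change under the fold limit (-0.67, FDR 0.0446). On the CPM scale the groups did not overlap for 4 members that were higher in each line, which are EGR3, NR4A2 and NR4A3 in both, IER5 in MM1R cells and NR4A1 in MM1S cells (16.5% and 14.7% of all genes), and for SRF, which was lower in MM1R cells (14.1%). For EGR3 in both lines (1 count against 1 count) and NR4A3 in MM1S cells (5 counts against 5), this separation is a tie in counts that the scaling of the libraries breaks. NR4A1 and NR4A2 were nevertheless above the untreated library of their passage in 6 of 6 Fer-1 and RSL3 libraries, and NR4A3 in 5, with 5 counts in both libraries of passage 23. For NR4A1 the ratio was 3.94, 1.69 and 1.39 in MM1R cells and 23.3, 8.88 and 2.83 in MM1S cells. NR4A1 had fitted log2 fold changes of 1.38 (FDR 0.617) and 3.28 (FDR 0.317). Without the MM1R library of passage 6 the MM1R value of NR4A1 was 1.55 (FDR 0.669), that of SRF went from -0.65 to -0.90 (FDR 0.0536), and no member was called. The RSL3 effect did not differ detectably between the lines for any member, since 0 of 9 members and 0% of all genes were called for the difference (edgeR), with 0 members at an unadjusted p under 0.05 and 0 called by DESeq2. The interval of that difference was wide, from -6.65 to 3.00 on the log2 scale for NR4A1 and from -0.97 to 0.47 for SRF. The same held for the line difference in the Fer-1 effect (0 of 9 members, 0% of all genes), with an interval of -4.34 to 4.19 for NR4A1. Without the MM1R library of passage 6 this difference was 0.099 for NR4A1, against -0.076 with it, and no member was called. Between untreated MM1R and MM1S cells no member was called, beside 4.64% of all genes (edgeR), with 0 members at an unadjusted p under 0.05 and 0 called by DESeq2. The groups did not overlap for NR4A1 and IER5 (15.6% of all genes were higher in this way). NR4A1 was higher in all untreated MM1R libraries (3.07 to 6.96 CPM) than in MM1S libraries (1.04 to 2.77 CPM), with a log2 fold change of 1.55 (FDR 0.636).

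**Figure D3:**
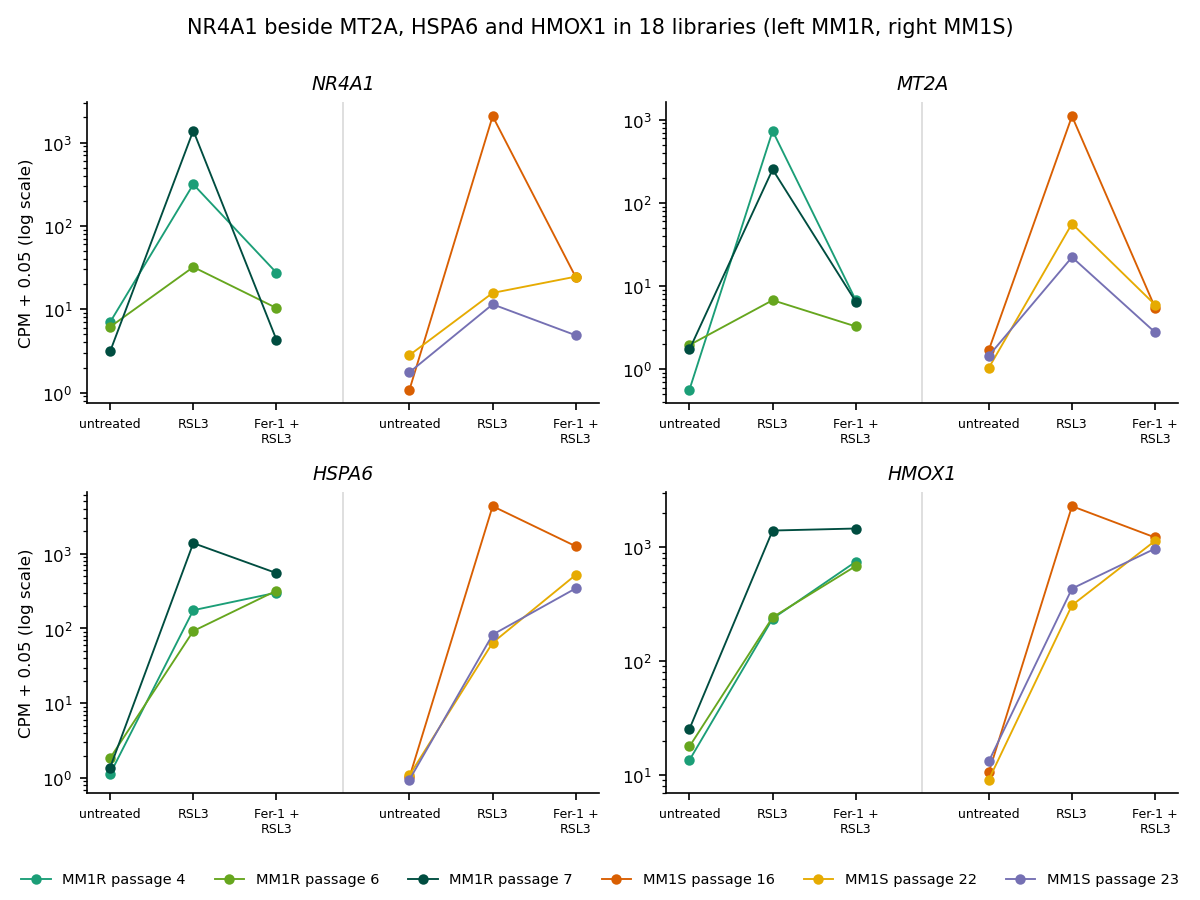
NR4A1 beside MT2A, HSPA6 and HMOX1 as CPM + 0.05 on a log scale; points are single libraries and lines join the treatments of a passage. With Fer-1 before RSL3, NR4A1 is lower than with RSL3 alone in 5 of 6 passages and MT2A in all 6, while HSPA6 and HMOX1 stay far above untreated levels in all 6.

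The 2 RSL3 libraries with the highest NR4A1 levels also had the highest HSPA6 levels. HSPA6, an inducible HSP70, reached 4317 CPM at MM1S passage 16 and 1385 CPM at MM1R passage 7 with RSL3, and 64.5 to 175 CPM in the other 4. MT2A, a metallothionein, had 1099.7 CPM with RSL3 at MM1S passage 16 and 731 CPM at MM1R passage 4. With Fer-1 before RSL3, MT2A had 2.72 to 6.72 CPM in all 6 libraries, whereas HSPA6 still had 301 to 1255 CPM and HMOX1, the heme oxygenase, 685 to 1462 CPM. HSPA6 was higher with Fer-1 and RSL3 than with RSL3 alone at passages 4, 6, 22 and 23, and of these the NR4A genes were higher at passage 22 alone. The part of response strength in the NR4A differences between passages was not tested.

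The genes whose course was most like that of a member were found over 12 log2 ratios of a treated library to the untreated library of its passage, by the root mean square difference. NR4A2 lay 1.30 log2 units from NR4A1, closer than any gene outside the 10, of which the nearest were the metallothioneins MT1F (1.79) and MT1X (1.93) and CREB5 (2.06). For NR4A2 they were AREG (1.13), an EGFR ligand, CCL4L1 (1.28), a chemokine gene with near-identical copies, and CREB5 (1.41). For NR4A3 they were MT1X (1.89), MT2A (2.04) and MT1F (2.27). The median distance of all tested genes was 4.83 for NR4A1 and 3.79 for NR4A2. IER5 lay nearest to MAP4K3 (0.21), TSC22D1 (0.23) and TP53INP2 (0.26), IER2 to AURKAP1 (0.27), PNRC1 (0.32) and MEIS1 (0.34), and SRF to LMNB2 (0.14), SLC4A2 (0.15) and APOBEC3D (0.19). The nearest genes of EGR1, EGR2 and EGR3 lay at 0.62 to 0.80, at counts too low for the order to be read. The ratios of a passage share its untreated library, so that the distances are descriptions.

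The list of 46 other immediate early genes, like the lists that follow it, was written with earlier results of these data known. The shares of these lists are therefore descriptions. Of the 46 genes, 42 were tested, and 19 of them were called with RSL3 averaged over both lines, all higher (45.2%, beside 3.24% of all genes). The median log2 fold change was 1.13, beside 0.00 over all genes. In each line alone 10 were called, all higher. Those that changed most were ATF3 (4.32), JUN (4.31), RHOB (3.88), FOSL2 (3.72), FOSB (3.07) and PPP1R15A (2.98). JUN, an AP-1 subunit, went from 24.6 to 51.4 CPM in untreated MM1R cells to 778, 218 and 2026 CPM with RSL3. It kept 174 to 282 CPM with Fer-1 and RSL3, so that it stayed above all untreated libraries of its line. FOSL2, also an AP-1 subunit, went from 15.3 to 16.1 CPM to 170, 38.1 and 423 CPM and had 20.6 to 25.7 CPM with Fer-1 and RSL3. FOSB, which like the NR4A genes was low before treatment, reached 66.3 CPM in the RSL3 library of MM1S passage 16 and 1.01 to 12.6 CPM in the other RSL3 libraries. With Fer-1 and RSL3 against RSL3, averaged over both lines, 1 of the 42 was called, lower (2.38%, median -1.07), and this gene was HES1 (-1.17, FDR 0.0328, edgeR), named here after its value was seen.

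None of the 14 tested SRF cofactors and cytoskeletal targets of SRF was called with RSL3 averaged over both lines (0%, beside 3.24% of all genes, median -0.05, edgeR). Of these 14, ELK3 (0.36, FDR 0.0174, edgeR) alone passed the FDR without the fold limit, as 15.5% of all genes did. Of the 26 tested partners and upstream regulators, which include the EGR corepressors NAB1 and NAB2, the NR4A partner RXRA, the CREB family, and the kinases of the ERK and p38 pathways, 1 was called (3.85%, beside 3.24% of all genes). This was CREM (1.85, FDR 0.0181, edgeR), a CREB relative that also stands in the list of immediate early genes, with 309, 335 and 281 counts in untreated MM1S cells and 4044, 414 and 312 counts with RSL3. The median of this list was -0.09. The shares called in these 2 lists thus lay near that of all genes and do not set the lists apart. The 3 others that passed the FDR with smaller changes, named here after their values were seen, were the coactivator CRTC1 (-0.66, FDR 0.00207), BRAF (0.45, FDR 0.0164) and PPP2R2D (-0.23, FDR 0.0431).

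**Figure D4:**
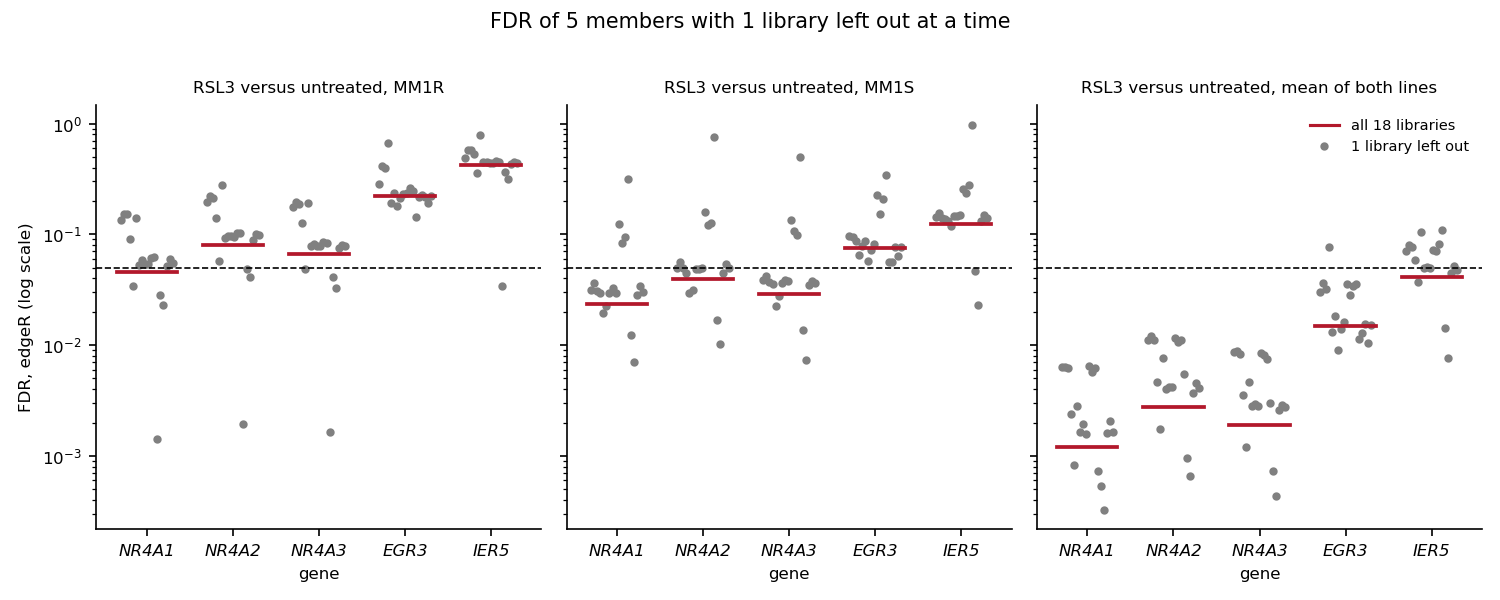
FDR of 5 members for RSL3 against untreated in MM1R cells, in MM1S cells and averaged over both lines, on a log scale. Red bars are the fit with all 18 libraries, grey points the fits with 1 library left out, and the dashed line is 0.05. The NR4A genes stay under the line in the average and cross it in each line alone.

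The calls in a single line depended on single libraries. In MM1R cells NR4A1 was called in 4 of the 18 fits that leave out 1 library, with log2 fold changes of 5.01 to 7.30. In MM1S cells NR4A1 and NR4A3 were each called in 14 of 18 fits and NR4A2 in 9 of 18. Without the RSL3 library of MM1S passage 16, NR4A1, NR4A2 and NR4A3 were all called in MM1R cells, with FDRs of 0.00143, 0.00195 and 0.00163, at nearly the same fold changes, since all groups share 1 estimate of the spread. The same fit called all 3 NR4A genes for Fer-1 and RSL3 against RSL3 in MM1R cells, with FDRs of 0.0290, 0.0442 and 0.0298. Over all genes in MM1R cells this fit called 341 with RSL3 and 31 for Fer-1 and RSL3 against RSL3.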

How the data were processed

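RNA sequencing of 18 libraries was analysed. The authors checked reads with FastQC 0.11.5, aligned them to hg19 with STAR 2.7.3a and deposited raw read counts of 43735 genes. The counting tool, annotation and use of strand are not given in the sources used here. The authors also deposited a table of 29553 genes holding normalized signal, that is counts divided by a size factor per library (0.834 to 1.08), which was used in an alternative.

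The members and the gene lists were chosen with earlier results of these data known. Genes were kept with filterByExpr (minimum count 10), scaled by TMM (0.863 to 1.06), and tested with edgeR 4.0.16 (quasi-likelihood, Benjamini-Hochberg over all 14281 genes) in 1 model of 6 group means, with R 4.3.3. The thresholds were an FDR of 0.05 and a log2 fold change of 1. Intervals are 95% intervals of the fitted log2 fold change from its SE with 12 residual degrees of freedom, which is wider than the moderated test implies. Each SE was derived from the test, as the size of the log2 fold change over the square root of the F statistic. It is therefore not a separate estimate of the spread. The scripts were tested on simulated data. Alternatives were DESeq2 1.42.0, RLE and upper-quartile scaling, limma 3.58.1 on log2 of normalized signal plus 1, no filter, a minimum count of 30, only the groups compared, no fold minimum, each library left out, and, added after the data were seen, DESeq2 without its outlier filter.

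Passages label the replicates and pair the libraries within a line. Within a passage, the deviations of its libraries from the means of their groups correlated with a median of 0.250 in MM1R cells (0.0338 to 0.516, 9 pairs) and 0.416 in MM1S cells (0.216 to 0.681), and the alternatives include a passage block. Each group has 3 libraries of 1 line, 1 from each passage. The main fit does not pair libraries by passage, and it pools the spread between libraries over all 6 groups, so that its p-values measure this pooled spread. Floors and counts cover counting error only. The genes named are the 10 members, up to 6 called genes of each list by size of the mean RSL3 change, the 3 genes nearest to each tested member, and HSPA6, HMOX1, MT2A and NR3C1. Positions came from GENCODE in hg19, and promoter sequences from RefSeq in GRCh38.p14.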

Additional observations from a re-analysis of the deposited data

How the results depend on the processing

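For RSL3 against untreated in MM1R cells, where 1 member was called, 3 were called by DESeq2 (with or without its outlier filter), with only the groups compared and with the passage as a replicate block, 4 with no filter, and 0 to 3 without 1 library. Calls over all genes moved as well. They were 171 in the main fit, 271 by DESeq2, 238 with only the groups compared, 410 with the block and 431 with no filter. In MM1S cells, where 3 members were called, 0 were called by limma on the normalized values or with only the groups compared, 7 with no filter, and 0 to 5 without 1 library. The calls over all genes there were 230 in the main fit, 186 by limma, 3 with only the groups compared and 517 with no filter. Averaged over both lines, where 5 members were called, 3 were called with only the groups compared and 3 to 6 without 1 library. Over all genes this average had 462 calls in the main fit and 392 with only the groups compared. For Fer-1 and RSL3 against RSL3, where 0 members were called, DESeq2 called 1 in MM1R cells and 3 averaged over both lines, no filter gave 3 and 5 in the MM1R and MM1S lines and 5 averaged, the block gave 1 averaged, and leaving out 1 library gave 0 to 3 and 0 in the MM1R and MM1S lines and 0 to 3 averaged. Over all genes, no filter gave 134 and 151 calls in the MM1R and MM1S lines and 169 averaged, against 0, 0 and 8 in the main fit. DESeq2 called 17 of all genes in MM1R cells and 61 averaged, and the block called 53 averaged. For Fer-1 and RSL3 against untreated, no filter gave 5 and 4 members in the MM1R and MM1S lines, and only the groups compared gave 1 in MM1S cells. For the line difference in the RSL3 effect no filter gave 1, and for the untreated lines no filter gave 1 and only the groups compared gave 1, NR4A1. Leaving out 1 library gave 0 members in all 5 of these comparisons, the line difference in the Fer-1 effect included. Over all genes, no filter called 502 and 378 for Fer-1 and RSL3 against untreated, beside 309 and 195 in the main fit. It called 27 for the line difference in the RSL3 effect and 946 between the untreated lines, beside 0 and 662. With only the groups compared the calls over all genes were 224 for Fer-1 and RSL3 against untreated in MM1S cells and 651 between the untreated lines. The count of other immediate early genes was 19, and 13 to 22 without 1 library. SRF cofactors and targets went from 0 to 1 with no fold minimum, and partners and regulators from 1 to 0 with limma on the normalized values, to 4 with no fold minimum, and to 0 to 1 without 1 library. The cause of these shifts was not tested.

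Among the single gene results of RSL3 against untreated and of Fer-1 and RSL3 against RSL3 in each line, 14 reversed in sign, all without 1 library, and their log2 fold changes are given as ranges over such fits. EGR1 with RSL3 ran from -0.039 to 1.38 in the MM1R line and from -1.57 to 0.42 in the MM1S line, and IER2 with RSL3 from -0.55 to 1.64 in the MM1S line. For Fer-1 and RSL3 against RSL3 in the MM1R line, EGR3 ran from -2.09 to 1.27 (the other reversed values were 0.42 and 0.32) and SRF from -0.34 to 0.040 (the other was 0.02). In the MM1S line, SRF ran from -0.32 to 0.14 (the other was 0.10), NR4A1 from -5.87 to 0.40, NR4A2 from -5.92 to 0.59, IER2 from -2.03 to 0.51 and IER5 from -1.35 to 0.42, where the 4 upper values are those without the RSL3 library of passage 16. In the other comparisons, members changed sign without 1 library in 1 of 9 for each average (EGR1 with RSL3, SRF with Fer-1), 2 of 9 for Fer-1 and RSL3 against untreated in each line, 7 of 9 and 9 of 9 for the line differences in the RSL3 and Fer-1 effects, and 6 of 9 between the untreated lines, and none of these was called. Settings other than leaving out a library changed the sign of EGR1 in the RSL3 average, IER2 for Fer-1 and RSL3 against untreated in the MM1R line, 4 members in each line difference and 6 between the untreated lines. Besides the changes given with the results, the replicate block changed no call of a member. The depth of about 17635400 to 19368300 counts per library left EGR3, IER3 and untreated NR4A3 near the floor of 3 counts per library.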
